A study of Mus musculus with 8 samples.

Results

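The comparison set Tgfbr1 knockdown alone against RasV12 alone in ASZ001 cells, a mouse line derived from a basal cell carcinoma. The members were the 4 libraries of those groups, out of 8 libraries in the series, chosen by their labels and read over all genes. The question was which gene programs the 2 single perturbations bring to the same level and which separate them.

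The knockdown group carried an shRNA against Tgfbr1 and received DMSO, the solvent. The RasV12 group carried a non-silencing (NS) shRNA and received Dox (doxycycline) and 4OHT (4-hydroxytamoxifen), and its libraries are labelled RasV12. Cells with NS shRNA under DMSO gave the common starting point, and cells with both the Tgfbr1 shRNA and RasV12 entered the estimate of spread. Each group had 2 libraries of adherent cells. All groups shared the ASZ001 background and each carried an shRNA. No library had Dox and 4OHT without RasV12, so the 2 groups differ at once in shRNA, drugs and Ras, and these cannot be told apart. The sources used here give no dose, time or Ras isoform. Nothing in them shows that duplicates are independent cultures, and the spread behind each p-value may be technical.

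Tgfbr1 encodes the type I receptor that phosphorylates SMAD2 and SMAD3 when TGF-beta binds, and in skin this pathway restrains keratinocyte growth and drives matrix genes. RasV12 is an activated form of the Ras GTPase, which signals through RAF, MEK and ERK. ERK output is read through ETS factors, AP-1 subunits and the negative feedback genes of the Sprouty and dual-specificity phosphatase families. Basal cell carcinoma is driven by Hedgehog signalling and keeps a basal and hair follicle-like keratinocyte state, whereas squamous carcinoma carries Ras mutations more often and expresses cornification genes.

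Library totals ran from 12724325.5 to 16233011 counts, and log-scale correlations between the 2 libraries of a group ran from 0.9971 to 0.9979. The ribosomal transcript Rn45s took from 0.388% to 2.76% of the counts. The chi-square of the counts between the 2 libraries, per degree of freedom, was 8.111 in the knockdown and 13.01 in RasV12, so neither pair was a library deposited in duplicate. It was 2.325 in NS cells under DMSO and 2.647 in the knockdown with RasV12, and all groups share 1 estimate of spread. Between replicates, Rn45s went from 0.388% to 1.36% in the knockdown and from 0.916% to 2.76% in RasV12. It went from 0.816% to 0.549% and from 2.49% to 2.57% in the other 2 groups. Its part in the chi-square was not tested. Levels are given as CPM (counts scaled to a common library total) in replicate 1 and replicate 2, and they are compared between groups and not between genes. Differences are log2 values of knockdown minus RasV12 with a standard error. A gene is called where edgeR's quasi-likelihood test gave a Benjamini-Hochberg adjusted p under 0.05. A gene's level is called matched where the 95% interval of the difference lay wholly within 1.5-fold in either direction.

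Tgfbr1 itself stood at 10.2 and 8.08 CPM in the knockdown and at 104 and 91.6 CPM in RasV12. Both knockdown libraries lay far below both RasV12 libraries, and the difference was -3.43 ± 0.09 (adjusted p = 2.9e-20). In NS cells under DMSO Tgfbr1 was at 77.1 and 80.4 CPM. Esr1, the estrogen receptor that binds 4OHT, was at 22.7 and 22.4 CPM in the knockdown and at 3451 and 3657 CPM in RasV12, a 157-fold difference. Hras was lower in the knockdown, at 57.9 and 58.6 CPM against 162 and 158 CPM, and NS cells under DMSO had 176 and 179 CPM. Nras was at 358 and 372 CPM in the knockdown and at 267 and 259 CPM in RasV12. Counts per gene do not show which Ras gene carried the V12 change. Nor do they show whether the Esr1 reads came from the cell's own gene or from an introduced sequence.

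Of 12538 genes tested, 6880 (54.9%) were called. The calls were split almost evenly, with 3445 (27.5%) higher in the knockdown and 3435 (27.4%) higher in RasV12. Most called differences were small: 498 genes (3.97%) were called and at least 2-fold higher in the knockdown, and 645 (5.14%) in RasV12. The median absolute difference over all tested genes was 0.24 on the log2 scale. A matched level was found for 7867 genes (62.7%), of which 3714 (29.6% of those tested) were also called, so a called gene can still have a matched level. The remaining 1505 genes (12% of those tested) were neither called nor matched. The 2 libraries of each group did not overlap for 9533 genes (76%), so non-overlap alone says little about a member.

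**Figure D1:**
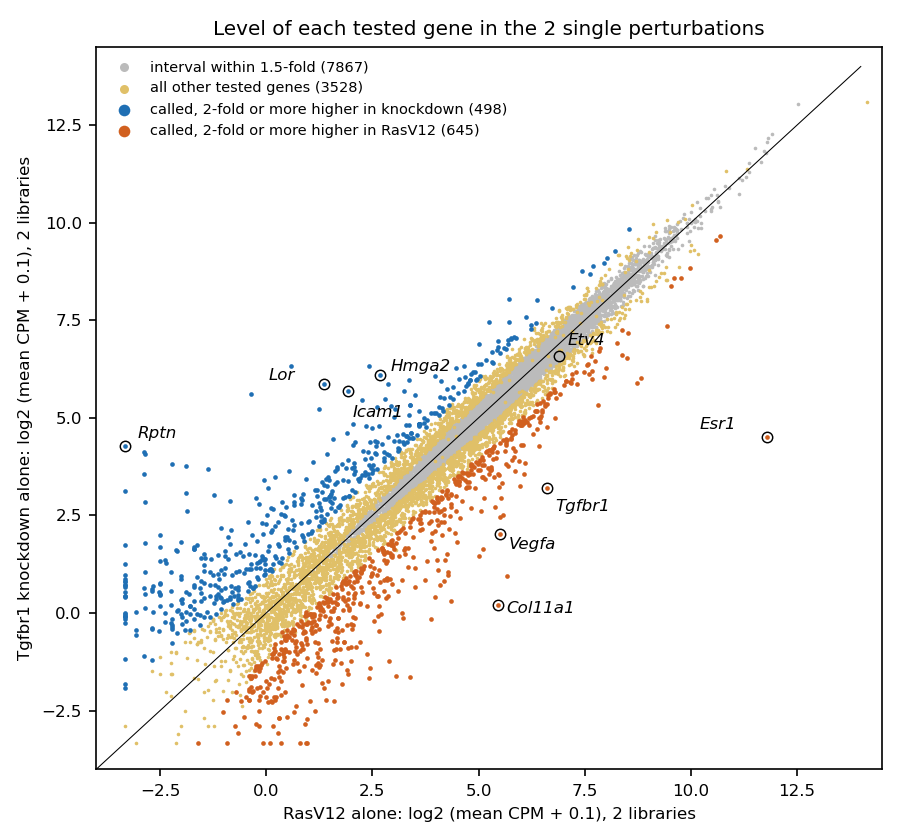
Mean level of each of the 12538 tested genes, log2 of CPM plus 0.1, in RasV12 alone (x) and in the knockdown alone (y), 2 libraries each. Grey points have a matched level, blue and orange points are called and at least 2-fold higher in the knockdown or in RasV12, and all other tested genes are yellow. Esr1, Tgfbr1, Col11a1 and Vegfa lie far below the diagonal line of equal levels, and Lor, Icam1, Hmga2 and Rptn lie above it.

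Gene lists for the pathways and cell states that bear on a skin carcinoma line separated into those near equality and those far from it. Squamous terminal differentiation had the largest median difference toward the knockdown among the lists with at least 5 members tested, at 2.98, followed by inflammatory cytokines at 1.68. Interferon-stimulated genes had the largest toward RasV12, at -1.05, followed by ATF4 and serine synthesis genes at -0.48. The median over all tested genes was -0.000816. Lists of DNA replication, aminoacyl-tRNA synthetases, sterol synthesis and actin genes had medians between -0.05 and 0.15.

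**Figure D2:**
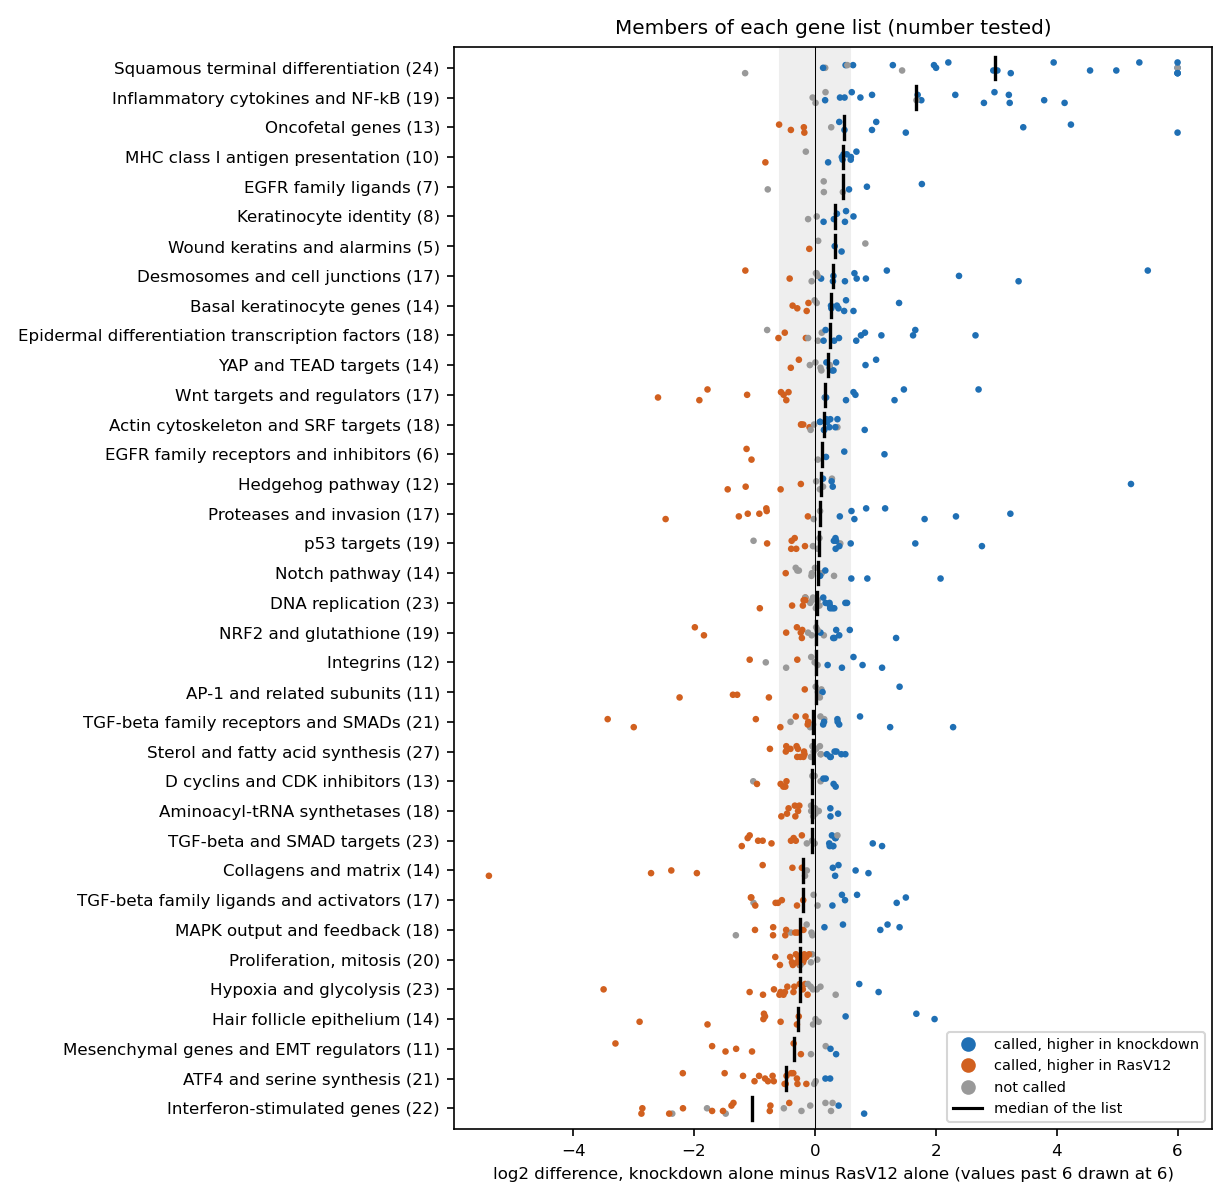
Log2 difference, knockdown alone minus RasV12 alone (x), of each tested member of each list with at least 5 tested members (rows, ordered by median, number tested in brackets). Blue and orange points are called higher in the knockdown or in RasV12, grey points are not called, the black bar is the list's median and the grey band is 1.5-fold either way. Squamous differentiation and inflammatory genes lie mostly right of the band and interferon-stimulated genes mostly left of it.

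Cornification genes separated the perturbations. Of 24 squamous differentiation genes tested, 19 were higher in the knockdown, 16 of them by at least 2-fold, and 0 were higher in RasV12, against 27.5%, 3.97% and 27.4% of all tested genes. Only Spink5 of this list had a matched level. Of these 24 genes, 8 had at most 3 counts in a group and passed the filter on low counts through a group where they were high, so they could not be called the other way. Among the 16 above that floor in both groups, 13 were higher in the knockdown, 10 of them by at least 2-fold. Of the 32 genes listed, 31 were found in the table, and 24 of those passed the filter. The count higher in RasV12 was 1 where the fit left out a library of the knockdown with RasV12 or used only the libraries compared. The list's median stayed at 2.98 when the members with at most 3 counts in a group were set at a floor of 3 counts over the group.

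Loricrin (Lor), a main protein of the cornified envelope, was at 61.9 and 55.1 CPM in the knockdown and at 2.93 and 2.01 CPM in RasV12. The RasV12 libraries lay at the level of NS cells under DMSO, 2.46 and 2.52 CPM, and the difference between the perturbations was 4.55 ± 0.13 (adjusted p = 3.8e-21). Sprr1b, a small proline-rich envelope precursor, was at 81.3 and 80.4 CPM in the knockdown and at 5.25 and 5.2 CPM in RasV12, a 15.5-fold difference. Sprr family members are similar in sequence, and reads shared between them may be split in ways these counts do not show.

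Repetin (Rptn), an envelope protein of the fused-type S100 family, had 528 counts over the 2 knockdown libraries and 0 over the RasV12 libraries, at least 171.4-fold higher against a floor of 3 counts over the group. Calm4, a calmodulin-like protein of differentiating skin, had 466 counts against 1, a ratio of 453.8 with a counting interval from 81.05 to 17960. Crct1, of the epidermal differentiation complex, had 454.5 counts against 1. These intervals cover counting error only.

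Enzymes and adhesion proteins of the upper epidermis followed the same direction. Asprv1, the protease that processes filaggrin, was at 97.4 and 64.1 CPM in the knockdown and at 1.62 and 1.17 CPM in RasV12. Corneodesmosin (Cdsn) was at 45 and 29.3 CPM against 1.89 and 2.67 CPM. The knockdown replicates differed from each other for both genes, with replicate 1 the higher, but both lay far above RasV12. Padi4, a peptidylarginine deiminase, was at 12.7 and 12.9 CPM in the knockdown and at 0.425 and 0.146 CPM in RasV12, and Padi3 differed 2.44-fold. Spink5, a protease inhibitor of the cornified layer, was at 111 and 104 CPM against 98.9 and 97.1 CPM, where NS cells under DMSO had 213 and 213 CPM.

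Against NS cells under DMSO, 16 of the 24 squamous genes were above and 4 below in the knockdown, and 3 were above and 6 below in RasV12. The background was 30.9% above and 31% below for the knockdown and 20.8% above and 21.3% below for RasV12. With DESeq2 the RasV12 background fell from 2613 genes above and 2668 below to 1605 and 1660. The 2 contrasts share the NS libraries under DMSO.

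The stretch of 250 bases before the start of Lor, Sprr1b and Rptn is shown because these genes stood among the 12 with the largest differences toward the knockdown. Each stretch also holds a TGANTCA match, given in capitals. TGANTCA is a looser form of the AP-1 recognition sequence, whose middle base is C or G. The middle base is G in Lor, A in Sprr1b and T in Rptn. The sequences come from RefSeq on GRCm38.p6, not from the build of the counts, and run 5′ to 3′ on the strand of the gene. Lor lies on the minus strand at chr3:92083143-92083392, Sprr1b on the minus strand at chr3:92438780-92439029, and Rptn on the plus strand at chr3:93393449-93393698.
Lor: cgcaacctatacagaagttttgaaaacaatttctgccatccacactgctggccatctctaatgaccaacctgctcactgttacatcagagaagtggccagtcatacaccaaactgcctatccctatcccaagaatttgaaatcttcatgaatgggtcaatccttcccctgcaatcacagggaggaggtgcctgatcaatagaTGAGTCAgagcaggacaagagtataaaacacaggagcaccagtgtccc
Sprr1b: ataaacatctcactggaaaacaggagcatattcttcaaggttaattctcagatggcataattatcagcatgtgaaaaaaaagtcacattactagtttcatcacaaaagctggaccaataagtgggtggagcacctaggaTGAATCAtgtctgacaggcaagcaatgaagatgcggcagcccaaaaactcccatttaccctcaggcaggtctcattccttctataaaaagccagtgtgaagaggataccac
Rptn: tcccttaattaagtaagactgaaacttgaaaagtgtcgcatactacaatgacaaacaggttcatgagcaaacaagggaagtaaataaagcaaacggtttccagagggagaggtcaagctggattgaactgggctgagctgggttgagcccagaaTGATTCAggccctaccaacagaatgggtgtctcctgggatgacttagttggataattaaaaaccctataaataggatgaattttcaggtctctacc
The match begins 48 bases before the start in Lor, 111 in Sprr1b and 96 in Rptn. TGANTCA was found on either strand in 13 of the 30 squamous genes with an entry (43.3%) and in 7.82% of all 27025 genes with one. It was also found in 4 of 17 inflammatory genes (23.5%) and 4 of 20 interferon-stimulated genes (20%). The ATF4 list had it in 1 of 19 and the MAPK list in 0 of 10. TGANTCA was among 9 motifs searched, all listed in the account of processing, and a match is a description of the letters only.

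Transcription factors of epidermal differentiation had a smaller median difference, 0.25. Of 18 tested, 11 (61.1%) were higher in the knockdown, 3 (16.7%) were higher in RasV12 and 7 (38.9%) had a matched level. All tested genes gave 27.5%, 27.4% and 62.7%. Gata3, a regulator of epidermal barrier and hair follicle genes, was at 24.3 and 21.3 CPM in the knockdown and at 6.87 and 7.51 CPM in RasV12. Grhl3, a grainyhead factor needed for barrier formation, was at 13.4 and 12.3 CPM against 5.94 and 6.01 CPM, both above NS cells at 1.83 and 2.24 CPM. Ovol1, a zinc-finger repressor that promotes exit from the basal state, differed 1.7-fold in the same direction. Cebpb went the other way, at 41.6 and 44 CPM in the knockdown and 62.4 and 67.7 CPM in RasV12. Klf4, required for barrier formation, did not separate the groups: it was at 203 and 197 CPM against 194 and 193 CPM, and its level was matched.

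Basal keratinocyte genes, by contrast, were mostly near each other. Of 14 tested, 12 (85.7%) had a matched level, while 8 (57.1%) were higher in the knockdown and 4 (28.6%) in RasV12. The background shares were 62.7%, 27.5% and 27.4%. Krt5 and Krt14 encode the keratin pair of the basal layer. Krt5 was at 8586 and 8153 CPM in the knockdown and at 5770 and 5949 CPM in RasV12, both below NS cells at 13196 and 13279 CPM. Krt14 was at 4785 and 4492 CPM against 3538 and 3671 CPM. Trp63, the master regulator of stratified epithelium, was chosen after its values were seen and had 447 and 446 CPM against 445 and 429 CPM. The laminin-332 chains Lama3 and Lamb3 differed 1.4-fold and 1.31-fold toward the knockdown, within the matched margin. Itga6, the integrin of hemidesmosomes, was at 609 and 591 CPM against 387 and 385 CPM and was not matched. Of the 14 genes, 11 were below NS in the knockdown and 11 in RasV12, against 31% and 21.3% of all tested genes.

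Of 5 wound keratins and alarmins tested, 2 had a matched level, 2 were higher in the knockdown and 1 was higher in RasV12, the last 0 with DESeq2, with only the libraries compared, or without knockdown or RasV12 replicate 2. Krt17 was at 3173 and 2887 CPM in the knockdown and at 3175 and 3290 CPM in RasV12, against 5962 and 5905 CPM in NS cells, and its level was matched. Krt6a was also matched, at 1156 and 1087 CPM against 880 and 907 CPM. Krt16 differed 1.36-fold toward the knockdown. In this list 40% were matched, 40% higher in the knockdown and 20% higher in RasV12, against 62.7%, 27.5% and 27.4% of all tested genes. Reads of Krt6a, Krt14, Krt16 and Krt17 may be shared between near-identical copies, so their separate levels are uncertain.

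Of 7 keratins of simple epithelia listed, 3 were tested, and these 3 were higher in the knockdown, against 27.5% of all tested genes. Only 1 of them was above 3 counts in both groups. Krt19 and Krt7 had at most 3 counts in RasV12 and passed the filter on low counts through a group where they were high. Krt19 had 91 counts in the knockdown and 1 in RasV12, a ratio of 88.62 with a counting interval from 15.51 to 3538. Krt7 had 42 counts against 0, at least 13.63-fold higher. Krt80 was at 12.2 and 11.2 CPM against 3.67 and 4.5 CPM.

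Cell junction genes divided by molecule. Of 17 tested, 11 (64.7%) were higher in the knockdown, 2 (11.8%) were higher in RasV12 and 9 (52.9%) had a matched level. All tested genes gave 27.5%, 27.4% and 62.7%. Of the 16 above 3 counts in both groups, 10 were higher in the knockdown. Claudin 4 (Cldn4), a tight junction protein, was at 40.3 and 39 CPM in the knockdown and at 6.75 and 8.31 CPM in RasV12, a 5.22-fold difference. The desmosomal plakophilin Pkp2 was at 27.2 and 27.7 CPM against 12.8 and 11.3 CPM. E-cadherin (Cdh1) was at 552 and 552 CPM against 387 and 396 CPM, a 1.41-fold difference within the margin. Connexin 43 (Gja1), the main gap junction protein of keratinocytes, was higher in RasV12, at 714 and 759 CPM against 334 and 329 CPM. Desmoplakin (Dsp) and plakoglobin (Jup), which link desmosomes to keratin, were matched and not called.

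Inflammatory and NF-kB genes also set the knockdown apart. Of 19 tested, 15 (78.9%) were higher in the knockdown, 9 of them by at least 2-fold. In RasV12 0 were higher, and 3 (15.8%) had a matched level. The shares of all tested genes were 27.5%, 3.97%, 27.4% and 62.7%. Of the 17 above 3 counts in both groups, 13 were higher in the knockdown. Icam1, an adhesion receptor for leukocytes, was at 51.9 and 50.5 CPM in the knockdown and at 4.17 and 3.26 CPM in RasV12. NS cells under DMSO had 2.89 and 3.09 CPM, so RasV12 stayed near the starting level while the knockdown was 13.9-fold above RasV12 (adjusted p = 4.7e-21). The neutrophil chemokine Cxcl1 was above NS cells in both perturbations. It was at 13.4 and 12.5 CPM in the knockdown, 3.82 and 4.06 CPM in RasV12 and 1.27 and 1.85 CPM in NS cells. The macrophage growth factor Csf1 had the same order, at 44 and 46.4 CPM, 28.6 and 25.2 CPM, and 11.4 and 12 CPM.

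The 2 matched genes of the list with the highest CPM encode NF-kB subunits. Nfkb1 was at 157 and 149 CPM in the knockdown and at 150 and 154 CPM in RasV12, and Nfkb2 at 125 and 125 CPM against 111 and 111 CPM. Nfkb2 was called higher in the knockdown within the matched margin. Against NS cells, 18 of the 19 genes were above in the knockdown and 7 in RasV12, and 0 were below in either. All tested genes gave 30.9% above in the knockdown and 20.8% in RasV12. Immune cell genes that would mark leukocytes in the culture were low: 8 of 13 markers of immune, endothelial and pigment cells had 0 counts in all 4 libraries, among them Cd3e and Adgre1. The summed level of that list was 59.6 to 60.3 CPM in the knockdown and 79.7 to 80.2 CPM in RasV12, and most of it was Mitf and Pecam1.

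**Figure D3:**
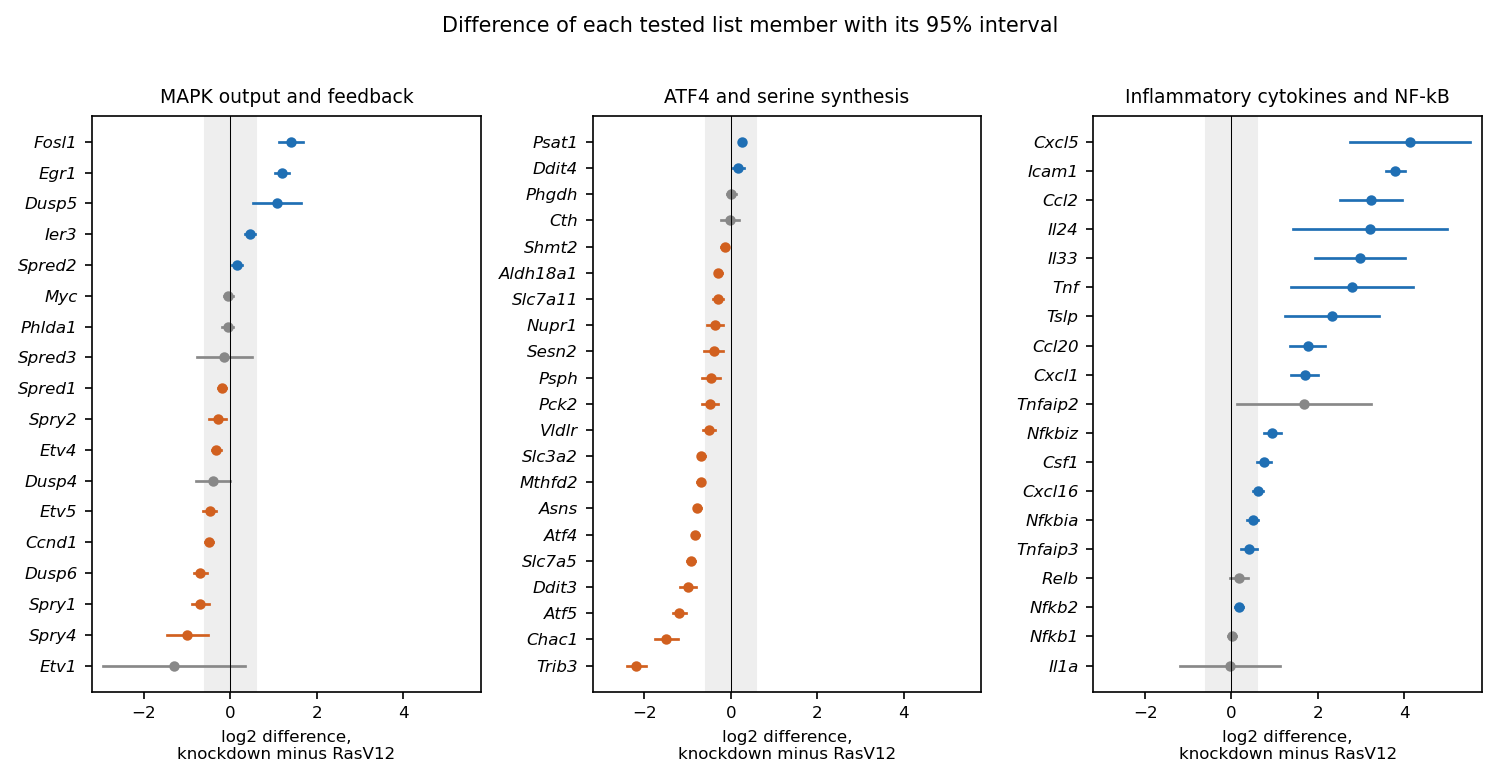
Log2 difference, knockdown alone minus RasV12 alone (x), with its 95% interval (line) for each tested member of 3 lists (rows); blue and orange mark calls toward the knockdown and RasV12, grey marks no call, and the band is 1.5-fold either way. Members of the MAPK list lie on both sides, 17 of 21 ATF4 list members are called toward RasV12, and 15 of 19 inflammatory members toward the knockdown.

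Oncofetal genes, expressed in embryo and in tumours, were another set with members higher in the knockdown. Of 13 tested, 8 were higher in the knockdown, 5 of them by at least 2-fold, and 4 were higher in RasV12, none by 2-fold. These calls made 61.5% and 30.8% of the list, against 27.5% and 27.4% of all tested genes. At 2-fold, all tested genes gave 3.97% toward the knockdown and 5.14% toward RasV12. A matched level was found for 5 (38.5%), against 62.7% of all tested genes. Of the 11 above 3 counts in both groups, 6 were higher in the knockdown, 3 of them by at least 2-fold. Hmga2, an architectural chromatin protein, was at 64.6 and 71.5 CPM in the knockdown and at 6.95 and 5.57 CPM in RasV12, with NS cells at 1.62 and 1.14 CPM. Both perturbations were above NS cells, and the knockdown was 10.9-fold above RasV12. The RNA-binding proteins Igf2bp2 and Igf2bp3, which stabilise fetal growth transcripts, differed 2.84-fold and 1.92-fold. The imprinted RNA H19 had 318.5 counts in the knockdown and 1 in RasV12, a ratio of 310.2 with a counting interval from 55.18 to 12270. Sox4 and Sox11, developmental transcription factors, had matched levels.

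Genes with the largest differences outside these lists included Msln, a surface glycoprotein of mesothelium and some carcinomas, at 45.1 and 52.8 CPM in the knockdown and 0.772 and 0.586 CPM in RasV12. The protocadherin Pcdh17 had 382.5 counts against 3, a ratio of 124.2 with a counting interval from 42.11 to 604. Nipal1, a magnesium transporter, was at 13.1 and 13.7 CPM against 0.27 and 0.0732 CPM.

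In the other direction, the amino acid response set RasV12 apart. ATF4 is the transcription factor of the integrated stress response and induces amino acid transport and synthesis genes. Of 21 tested members of its list, 17 (81%) were higher in RasV12, 3 of them by at least 2-fold. In the knockdown 2 (9.52%) were higher, and 8 (38.1%) had a matched level. The shares of all tested genes were 27.4%, 5.14%, 27.5% and 62.7%. The count of 2 was 1 with DESeq2, without knockdown replicate 1 or without RasV12 replicate 1. Atf4 was at 333 and 365 CPM in RasV12 and at 202 and 192 CPM in the knockdown, the latter close to NS cells at 206 and 206 CPM. Trib3, a pseudokinase induced by ATF4, was at 32.5 and 36.8 CPM in RasV12 and at 7.22 and 8.05 CPM in the knockdown, a 4.55-fold difference (adjusted p = 6.3e-16). NS cells had 12.9 and 13.4 CPM, between the perturbations. Asparagine synthetase (Asns) was at 316 and 328 CPM in RasV12 and 186 and 189 CPM in the knockdown, with NS cells again between at 255 and 261 CPM.

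Not all of the list divided. Psat1, the aminotransferase of serine synthesis, was higher in the knockdown, at 486 and 500 CPM against 412 and 416 CPM, and its level was matched. Slc3a2, the heavy chain of several amino acid transporters, was at 254 and 268 CPM in the knockdown and 409 and 428 CPM in RasV12, where NS cells had 410 and 419 CPM. Against NS cells, 6 genes were above and 10 below in the knockdown, and 16 were above and 2 below in RasV12. The background was 30.9% and 31% in the knockdown and 20.8% and 21.3% in RasV12. Of 18 aminoacyl-tRNA synthetases, which charge tRNAs with amino acids, 17 had a matched level, 7 were higher in RasV12 and 3 in the knockdown. These were 94.4%, 38.9% and 16.7%, against 62.7%, 27.4% and 27.5% of all tested genes. Aars, the alanyl-tRNA synthetase, was the exception at 665 and 705 CPM in RasV12 and 473 and 459 CPM in the knockdown.

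The stretch before Asns is shown because this gene is called and its sequence holds a TGATGNAA match, the core of the element bound by ATF4 with C/EBP, in capitals, on the minus strand at chr6:7693210-7693459 (RefSeq, GRCm38.p6).
Asns: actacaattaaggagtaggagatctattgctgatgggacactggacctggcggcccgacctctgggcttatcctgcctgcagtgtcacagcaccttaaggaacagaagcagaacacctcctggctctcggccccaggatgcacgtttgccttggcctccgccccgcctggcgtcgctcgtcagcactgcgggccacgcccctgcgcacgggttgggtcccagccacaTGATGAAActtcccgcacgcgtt
The match begins 23 bases before the start. TGATGNAA was found in 6 of the 19 ATF4 list genes with an entry (31.6%) and in 3.91% of all genes with one.

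Hypoxia and glycolysis genes were also more often higher in RasV12. Of 23 tested, 15 (65.2%) were higher in RasV12, 2 (8.7%) in the knockdown, and 12 (52.2%) had a matched level. All tested genes gave 27.4%, 27.5% and 62.7%. Vegfa, the endothelial growth factor, had the largest difference of the list, at 41.5 and 48.7 CPM in RasV12 and 4.39 and 3.58 CPM in the knockdown. NS cells had 14 and 15 CPM, so the knockdown lay below and RasV12 above, and the perturbations differed 11.3-fold (adjusted p = 2.2e-18). Among glycolytic enzymes, Aldoa differed 1.5-fold and Pfkp 1.48-fold toward RasV12 and neither was matched, whereas Ldha and Pkm had matched levels. Slc2a1, the glucose transporter GLUT1, was among the 2 genes higher in the knockdown, at 431 and 384 CPM against 198 and 194 CPM, and was chosen after its values were seen.

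Mitotic genes were mostly close, with a shift toward RasV12. Of 20 tested, 16 were higher in RasV12, 0 were higher in the knockdown and 17 had a matched level, with a median difference of -0.25. Those shares, 80%, 0% and 85%, stand against 27.4%, 27.5% and 62.7% of all tested genes. Cdc20, the activator of the anaphase-promoting complex, was at 227 and 238 CPM in RasV12 and 148 and 147 CPM in the knockdown, and cyclin A2 (Ccna2) at 370 and 351 CPM against 238 and 244 CPM. These were 2 of the 3 genes of the list without a matched level, the other being Mki67, named after its values were seen. Top2a and Kif20a were matched. Against NS cells, 20 of 20 were above in RasV12, whereas 9 were above and 6 below in the knockdown. All tested genes gave 20.8% above in RasV12, and 30.9% above and 31% below in the knockdown.

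DNA replication genes, the other proliferation list, did not follow that shift. Of 23 tested, 20 (87%) had a matched level, 9 (39.1%) were higher in the knockdown and 6 (26.1%) in RasV12. The background shares were 62.7%, 27.5% and 27.4%. The helicase subunits Mcm4, Mcm2 and Mcm3 were higher in the knockdown by 1.45-fold, 1.22-fold and 1.19-fold. Rrm2, the small subunit of ribonucleotide reductase, was the largest exception, at 107 and 109 CPM in the knockdown and 198 and 209 CPM in RasV12. Against NS cells, 16 genes were above in the knockdown and 14 in RasV12, with 2 below in each. The background was 30.9% above and 31% below in the knockdown, and 20.8% above and 21.3% below in RasV12. Among D cyclins and CDK inhibitors, cyclin D2 (Ccnd2) was at 1037 and 1019 CPM in RasV12 and 696 and 691 CPM in the knockdown. Of 13 genes tested in that list, 8 (61.5%) had a matched level, near the 62.7% of all tested genes.

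Interferon-stimulated genes were more often lower in the knockdown. Of 22 tested, 11 (50%) were higher in RasV12, 8 of them by at least 2-fold. In the knockdown 2 (9.09%) were higher, and 3 (13.6%) had a matched level. The shares of all tested genes were 27.4%, 5.14%, 27.5% and 62.7%. Irf9, a transcription factor of the interferon response, was at 4.35 and 4.36 CPM in the knockdown and at 15.8 and 23.8 CPM in RasV12, with NS cells at 30.3 and 30.3 CPM. Ifit1 was at 0.611 and 0.246 CPM against 4.17 and 2.31 CPM, and the deconjugating protease Usp18 at 0.802 and 0.422 CPM against 2.62 and 3.63 CPM. Of the 22 genes, 16 were below NS in the knockdown and 10 in RasV12, against 31% and 21.3% of all tested genes. Irf1, which interferon gamma and NF-kB induce, was higher in the knockdown, at 38.6 and 39.8 CPM against 23.2 and 21.5 CPM. Ifit2 was also higher in the knockdown, 1.31-fold, and Stat2 was matched.

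The RasV12 replicates differed from each other for several of these genes. Bst2, an antiviral membrane protein chosen after its values were seen, was at 4.25 CPM in replicate 1 and 12.3 CPM in replicate 2. The count of 11 fell to 7 without RasV12 replicate 2 and to 7 without knockdown replicate 1, and was 14 without RasV12 replicate 1. Replicate 2 of RasV12 also had the largest share of Rn45s, 2.76% against 0.916% in replicate 1, and the part of either in the result was not tested.

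The stretch before Ifit1 is shown because this gene was called and holds 2 matches to the core of the interferon-stimulated response element, searched as GAAA, any 2 bases, GAAA, in capitals as read on the plus strand at chr19:34640639-34640888 (RefSeq, GRCm38.p6).
Ifit1: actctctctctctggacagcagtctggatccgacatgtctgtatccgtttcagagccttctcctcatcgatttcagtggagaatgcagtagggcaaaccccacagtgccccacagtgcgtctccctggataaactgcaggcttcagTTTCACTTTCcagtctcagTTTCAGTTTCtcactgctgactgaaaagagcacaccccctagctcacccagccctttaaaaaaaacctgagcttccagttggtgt
The matches begin 104 and 85 bases before the start and lie on the opposite strand. This motif was found in 7 of the 20 listed genes with an entry (35%) and in 3.46% of all genes with one.

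MHC class I genes, which interferon also induces, were mostly higher in the knockdown. Such calls made 80% of the tested list, against 27.5% of all tested genes. Matched levels made 20%, against 62.7%, and calls toward RasV12 10%, against 27.4%. Of 10 tested, 8 were higher in the knockdown, 1 in RasV12 (0 without knockdown replicate 2) and 2 had a matched level (1 with DESeq2, with only the libraries compared or without knockdown replicate 1). The class I heavy chain H2-D1 was at 80.8 and 79.3 CPM in the knockdown and 49.5 and 56.4 CPM in RasV12, and the loading factor Tapbp at 310 and 303 CPM against 174 and 206 CPM. Class I genes are near-identical copies, and reads shared between them make single levels uncertain.

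Mesenchymal genes were mostly higher in RasV12. Of 11 tested, 7 (63.6%) were higher in RasV12, 5 of them by at least 2-fold. In the knockdown 2 (18.2%) were higher, and 6 (54.5%) had a matched level. The shares of all tested genes were 27.4%, 5.14%, 27.5% and 62.7%. The count of 2 was 1 with DESeq2, without knockdown replicate 2 or without either RasV12 replicate. Zeb1, a repressor of epithelial genes, was at 9.07 and 9.12 CPM in RasV12 and 0.84 and 0.949 CPM in the knockdown, a 9.85-fold difference. NS cells had 5.63 and 4.69 CPM, between the perturbations. N-cadherin (Cdh2) was at 216 and 214 CPM against 83.9 and 90.1 CPM, and Cdh11 at 22.6 and 21.6 CPM against 8.02 and 7.8 CPM. NS cells had 23.5 and 22.9 CPM of Cdh11, near RasV12, and 258 and 266 CPM of Cdh2, above RasV12. The receptor Axl and the matrix protein Sparc had matched levels. Fibroblast markers were near 0, with a summed level of 2.67 to 3.02 CPM in the knockdown and 3.47 to 4.39 CPM in RasV12, and Col3a1, Lum and Thy1 had 0 counts in all 4 libraries.

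Collagens and matrix genes had the gene with the largest fold of this kind. Col11a1, a fibrillar collagen, was at 0.649 and 1.44 CPM in the knockdown and 47 and 40.1 CPM in RasV12, a 42.1-fold difference, with NS cells above both at 118 and 127 CPM. Of 14 tested, 7 (50%) were higher in RasV12, 5 (35.7%) in the knockdown and 6 (42.9%) had a matched level. The background shares were 27.4%, 27.5% and 62.7%. Of the 13 above 3 counts in both groups, 6 were higher in RasV12. The collagen IV chains, which share a promoter region and assemble together, went in opposite directions: Col4a1 was at 374 and 372 CPM against 678 and 680 CPM, and Col4a2, whose level was matched, at 937 and 943 CPM against 750 and 741 CPM. Fibronectin (Fn1) was matched and not called.

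Secreted proteases and their inhibitors separated in both directions and had few matched levels, 2 of 17 (11.8%, against 62.7% of all tested genes). Urokinase (Plau) was at 76.3 and 78.1 CPM in the knockdown and 21.3 and 22.6 CPM in RasV12, and its inhibitor Serpinb2 at 43.5 and 44.3 CPM against 4.9 and 4.43 CPM. NS cells lay between the perturbations for both, at 31.9 and 35.6 CPM for Plau and 15.7 and 17.2 CPM for Serpinb2. The metalloproteinase Adam12 went the other way, at 4.89 and 7.06 CPM against 32.4 and 34.1 CPM, as did Adamts1, 1.89-fold. In all, 8 (47.1%) were higher in the knockdown and 7 (41.2%) in RasV12, against 27.5% and 27.4% of all tested genes. The matched ones were the inhibitors Timp3 and Timp2. Among 12 integrins, the fibronectin receptor chain Itga5 was 2.11-fold higher in RasV12, while the TGF-beta activating chain Itgb6 was 2.16-fold and the collagen receptor chain Itga2 1.73-fold higher in the knockdown.

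**Figure D4:**
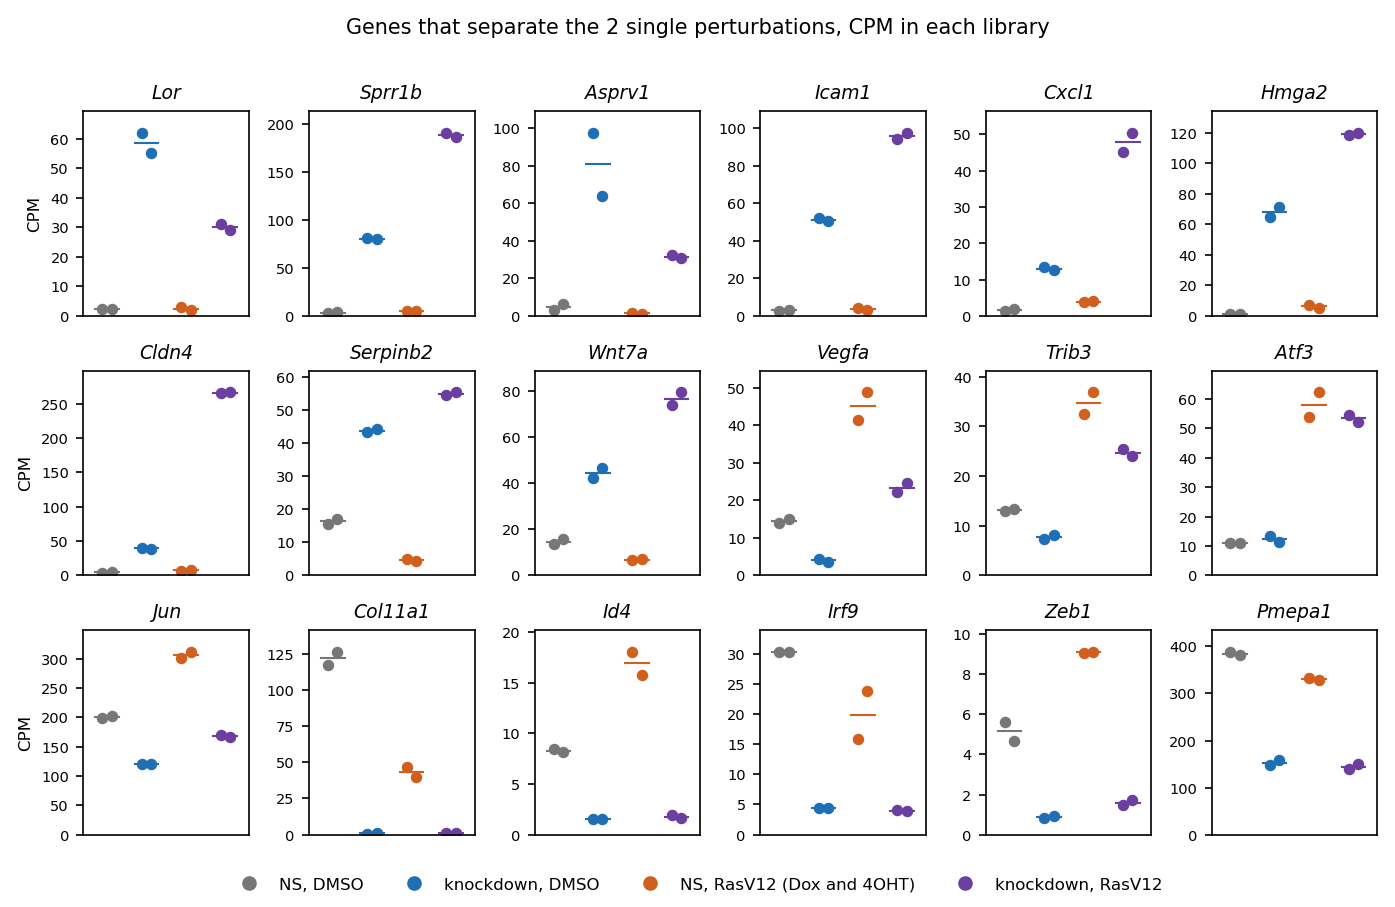
CPM (y, from 0) of 18 genes in each of the 8 libraries (points, 2 per group, line at the group mean), ordered as NS under DMSO, knockdown alone, RasV12 alone and knockdown with RasV12. The genes from Lor to Wnt7a are higher in the knockdown than in RasV12, and those from Vegfa to Pmepa1 are higher in RasV12. The 2 groups overlap in none of the panels. The genes were picked as called, those with the largest differences also for non-overlap, which 76% of all tested genes show.

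TGF-beta targets did not separate as a list. Of 23 tested, 10 were higher in RasV12, 9 were higher in the knockdown and 14 had a matched level, with a median of -0.05. These were 43.5%, 39.1% and 60.9%, against 27.4%, 27.5% and 62.7% of all tested genes. Pmepa1, a feedback inhibitor of the pathway, was at 147 and 158 CPM in the knockdown and 332 and 329 CPM in RasV12, against 389 and 381 CPM in NS cells. Bhlhe40 was at 38.8 and 33.6 CPM against 78.7 and 88.4 CPM, and Ltbp3, a binding protein of latent TGF-beta, differed 1.92-fold. Thbs1, which activates latent TGF-beta, was matched at 1651 and 1748 CPM against 2210 and 2266 CPM, both below NS cells at 3169 and 3229 CPM.

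Among the pathway's receptors and SMADs, 13 of 21 tested had a matched level, 8 were higher in the knockdown and 8 in RasV12. The latter count was 4 with DESeq2. Matched levels made 61.9%, near the 62.7% of all tested genes. Calls made 38.1% in each direction, against 27.5% toward the knockdown and 27.4% toward RasV12. Of the 20 above 3 counts in both groups, 7 were higher in RasV12. The type II receptor Tgfbr2 was at 149 and 151 CPM in the knockdown and 88.8 and 90 CPM in RasV12, opposite to Tgfbr1. Smad1 and Acvr1, of the BMP branch, were higher in RasV12, 1.97-fold and 1.49-fold. Among ligands and activators, the activin subunit Inhbb was at 110 and 112 CPM in the knockdown and 232 and 229 CPM in RasV12, and Bmp2 was at 68.5 and 63 CPM against 25.9 and 25.5 CPM. Of 17 tested, 6 (35.3%) were higher in the knockdown, 8 (47.1%) in RasV12 and 6 (35.3%) had a matched level.

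MAPK output genes were mostly above the starting level in both perturbations, and 44.4% of them had a matched level, below the 62.7% of all tested genes. Of 18 genes tested, 16 were above NS cells in the knockdown and 16 in RasV12, with Myc below in both. All tested genes gave 30.9% and 20.8% above. Directly compared, 8 had a matched level, 8 were higher in RasV12, 5 were higher in the knockdown and 3 were neither called nor matched. Calls toward RasV12 made 44.4% and toward the knockdown 27.8%, against 27.4% and 27.5% of all tested genes. Etv4, an ETS factor that ERK induces, was at 91.5 and 98.8 CPM in the knockdown and 114 and 125 CPM in RasV12, against 10.7 and 11.8 CPM in NS cells. It was called higher in RasV12 by 1.26-fold (adjusted p = 3.9e-06), and its level was matched. The feedback inhibitor Spry2 was at 19.2 and 20.8 CPM against 25.7 and 23.4 CPM, and Spred1 was 1.14-fold higher in RasV12.

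The members did not all favour the same perturbation. The 8 genes higher in RasV12 included the Sprouty genes Spry1, Spry2 and Spry4 and the ERK phosphatase Dusp6, and the 5 higher in the knockdown included Egr1 and Fosl1. Egr1, an immediate early factor, was at 43.4 and 48.7 CPM in the knockdown and 19.1 and 20.9 CPM in RasV12. Fosl1, an AP-1 subunit that accumulates under sustained ERK activity, was at 13.1 and 14.6 CPM against 4.82 and 5.75 CPM. The Spry1, Spry4 and Dusp6 names were given after their values were seen. Cyclin D1 (Ccnd1) was at 228 and 249 CPM in the knockdown and 321 and 351 CPM in RasV12.

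AP-1 subunits also divided. Jun was at 120 and 120 CPM in the knockdown, below NS cells at 199 and 202 CPM, and at 301 and 312 CPM in RasV12, above them (adjusted p = 6.2e-21 between the perturbations). Atf3, a stress-induced partner of Jun, was at 13.4 and 11.3 CPM in the knockdown, near NS cells at 10.9 and 11.2 CPM, and at 53.8 and 62.2 CPM in RasV12. Fosl2 was 1.7-fold higher in RasV12. The Maf factor Maff stood at the same level in both, at 14.7 and 15.4 CPM against 13.8 and 15.9 CPM, with NS cells at 4.76 and 4.3 CPM. Of 11 tested, 6 had a matched level (54.5%, against 62.7% of all tested genes).

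EGFR ligands feed back on Ras. Of 7 tested, 6 were above NS cells in the knockdown and 7 in RasV12, against 30.9% and 20.8% of all tested genes. Between the perturbations, 3 (42.9%) were higher in the knockdown and 0 in RasV12, against 27.5% and 27.4%. Epiregulin (Ereg) was at 16.7 and 18.2 CPM in the knockdown and 5.87 and 4.43 CPM in RasV12, against 1.96 and 2.06 CPM in NS cells. Epgn and Tgfa differed 1.82-fold and 1.48-fold in the same direction. Nrg1, at 26.1 and 30.3 CPM against 25 and 26.1 CPM, and Hbegf had matched levels. Among receptors and inhibitors, Erbb3 was 2.22-fold higher in the knockdown, and Egfr itself was matched and not called. Lrig1, which lowers ERBB receptor levels, and its family member Lrig3 were 2.19-fold and 2.07-fold higher in RasV12.

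By the rule for matched genes, the 12 that stood furthest above NS cells in both perturbations were Etv4, Arhgef3, Maff, Thbs2, Arhgap18, Lgals1, Arpc1b, Akr1b8, Lbh, Dram1, Spry2 and Nrg1. The rule selects for a shared direction, so their agreement is a description. Arhgef3, an exchange factor for RhoA, was at 20.8 and 19.8 CPM in the knockdown and 21 and 19.2 CPM in RasV12, against 4.6 and 4.8 CPM. Arpc1b, a subunit of the ARP2/3 complex that nucleates actin, was at 186 and 183 CPM against 149 and 147 CPM, with NS cells at 66.2 and 61.3 CPM.

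The 8 matched genes that stood furthest below NS cells in both were Glul, Vtcn1, Papss2, Dlx3, C1s1, Cyp26b1, Chst15 and Oxr1. Glutamine synthetase (Glul) was at 3.4 and 2.78 CPM in the knockdown and 3.55 and 2.38 CPM in RasV12, against 26 and 24.6 CPM. Dlx3, a homeobox factor of hair follicle and suprabasal epidermis, was at 11.1 and 9.8 CPM against 11.1 and 8.97 CPM, with NS cells at 34.2 and 31.2 CPM. Cyp26b1, which degrades retinoic acid, was at 35.4 and 31.3 CPM against 33.6 and 27.8 CPM, with NS cells at 103 and 90.2 CPM. Glul and Vtcn1 lost the matched call under 6 and 4 of the alternative settings.

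**Figure D5:**
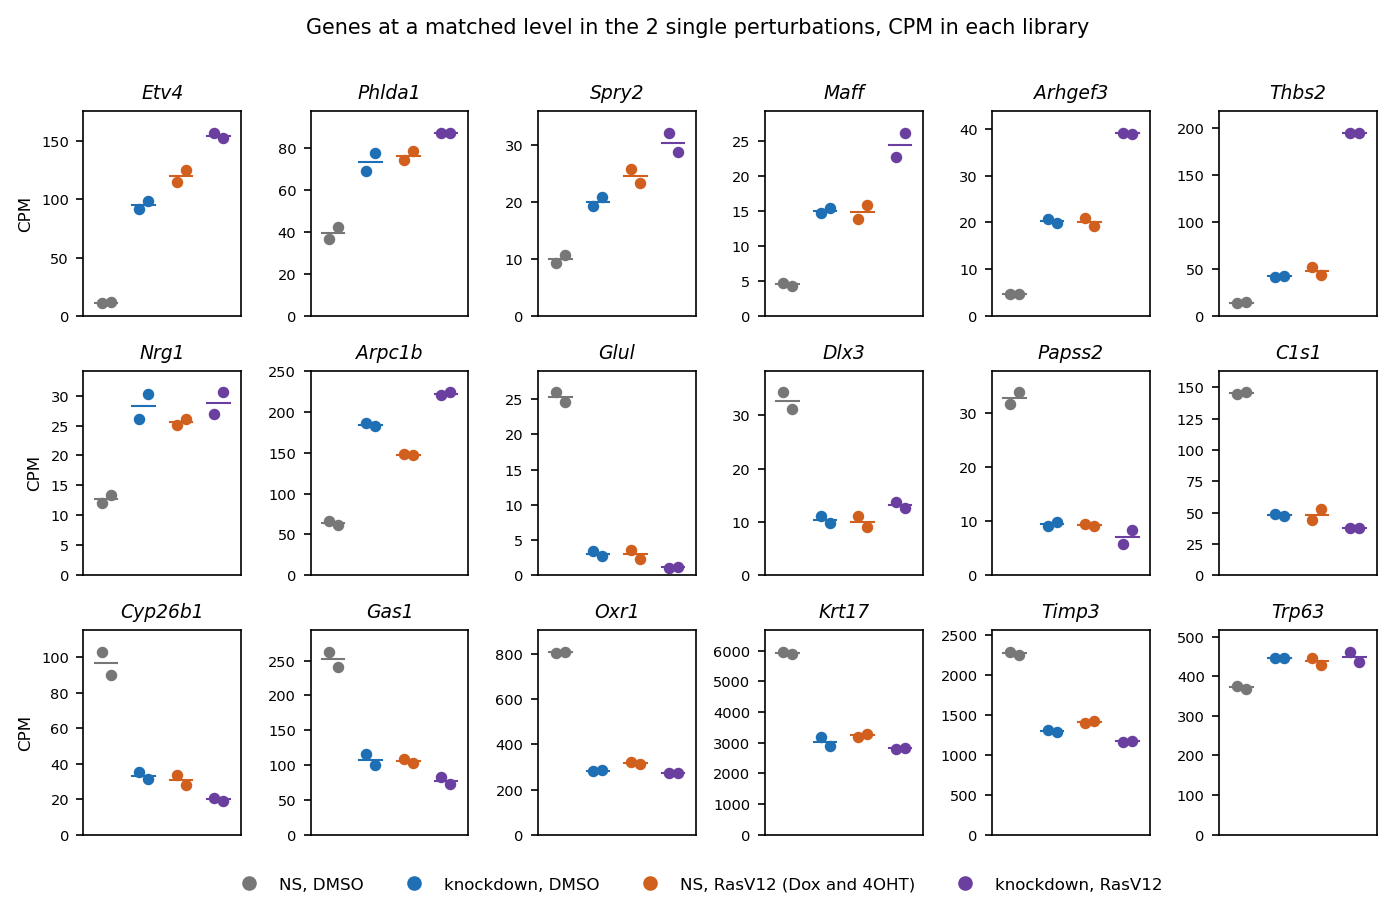
CPM (y, from 0) of 18 genes with a matched level in knockdown alone and RasV12 alone, in each of the 8 libraries (points, 2 per group, line at the group mean). The genes from Etv4 to Arpc1b lie above NS under DMSO in both perturbations and those from Glul to Timp3 lie below it; Trp63 is last. Phlda1 and Gas1 were also chosen after their values were seen.

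Hedgehog genes, the pathway that drives basal cell carcinoma, had a share of matched levels near that of all tested genes, 58.3% against 62.7%. Calls made 33.3% in each direction, against 27.5% toward the knockdown and 27.4% toward RasV12. Of 12 tested, 7 had a matched level, 4 were higher in the knockdown (2 with DESeq2 or without RasV12 replicate 2), and 4 were higher in RasV12. The inhibitor Sufu was at 36.7 and 35.3 CPM in the knockdown and 80.8 and 78.4 CPM in RasV12, where NS cells had 69.6 and 71.9 CPM. The co-receptor Boc was 2.72-fold and the target Sox9 1.48-fold higher in RasV12. Mycn, a target, had 86 counts in the knockdown and 2 in RasV12, a ratio of 41.88 with a counting interval from 11.25 to 351.3. Of the 11 genes above 3 counts in both groups, 3 were higher in the knockdown, 0 of them by 2-fold. Gas1, a co-receptor chosen after its values were seen, was matched at 116 and 99.6 CPM against 109 and 103 CPM, both below NS cells at 263 and 241 CPM.

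Hair follicle genes were more often higher in RasV12. Of 14 tested, 8 (57.1%) were higher in RasV12, 3 (21.4%) in the knockdown and 5 (35.7%) had a matched level. All tested genes gave 27.4%, 27.5% and 62.7%. The stem cell receptor Lgr6 was at 1.49 and 1.48 CPM in the knockdown and 10.2 and 12.3 CPM in RasV12, with NS cells at 9.33 and 8.28 CPM. Foxn1, which promotes keratinocyte differentiation, was at 11 and 9.87 CPM against 2.66 and 2.67 CPM. Against NS cells, 11 genes were below and 2 above in the knockdown, and 5 were below and 3 above in RasV12. The background was 31% below and 30.9% above in the knockdown, and 21.3% below and 20.8% above in RasV12.

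Wnt genes separated in both directions. Of 17 Wnt genes tested, 8 (47.1%) were higher in the knockdown, 8 (47.1%) in RasV12 and 4 (23.5%) had a matched level. The background shares were 27.5%, 27.4% and 62.7%. Wnt7a was at 42.1 and 46.7 CPM in the knockdown and 6.56 and 7.03 CPM in RasV12, with NS cells between at 13.7 and 15.7 CPM. Wnt10a and Wnt4 were also higher in the knockdown, 2.77-fold and 1.59-fold, and Wnt11 was higher in RasV12, at 8.61 and 8.28 CPM against 1.34 and 1.41 CPM. Of 14 Notch genes tested, 5 (35.7%) were higher in the knockdown, 1 (7.14%) was higher in RasV12 and 6 (42.9%) had a matched level. The receptor Notch3 was at 15.5 and 12.5 CPM in the knockdown and 3.09 and 3.55 CPM in RasV12, and the ligand Jag1 was 1.82-fold higher in the knockdown. Rbpj, the DNA-binding partner of Notch, was 1.4-fold higher in RasV12, and the count of Notch genes higher in RasV12 rose to 3 without RasV12 replicate 2.

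Sterol synthesis, actin and YAP lists had shares of matched levels from 85.2% to 88.9%, above the 62.7% of all tested genes. NRF2 genes at 68.4% and p53 targets at 63.2% lay nearer to it. A matched call needs a narrow interval, and genes with few counts have wide ones. Median levels in the knockdown were 148, 411 and 211 CPM for the first 3 lists, against 59.9 and 27.9 CPM for NRF2 and p53. The part of level in these shares was not tested. Of 27 sterol and fatty acid synthesis genes tested, 23 had a matched level, 7 were higher in the knockdown and 12 in RasV12. The calls made 25.9% and 44.4%, against 27.5% and 27.4% of all tested genes. Acly, which makes acetyl-CoA for lipid synthesis, was at 579 and 567 CPM in the knockdown and 409 and 400 CPM in RasV12. Of 18 actin and SRF genes 16 had a matched level, and of 14 YAP and TEAD genes 12, where Amotl2 was 1.79-fold and Nuak2 2.02-fold higher in the knockdown. Of 19 NRF2 and glutathione genes 13 had a matched level, with Gsta4 2.54-fold higher in the knockdown. Of 19 p53 targets 12 had a matched level, and the receptor Eda2r was at 3.4 and 2.42 CPM in the knockdown against 0.309 and 0.513 CPM.

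The genes with the largest differences toward RasV12 were Esr1 (read source unknown), Eya2, Col11a1, Prelp, Cyp4b1, Rgs16, Xylt1, Ak4, Gnao1, Vegfa, Spp1 and Id4. They divided by their level in NS cells. Eya2, a transcriptional coactivator phosphatase, was at 11.5 and 9.01 CPM in RasV12, above NS cells at 1.59 and 1.42 CPM, and at 0.191 and 0.246 CPM in the knockdown. The signalling regulator Rgs16 and osteopontin (Spp1) were likewise above NS cells in RasV12, at 13 and 16.3 CPM against 1.65 and 2.24 CPM and at 17 and 19.4 CPM against 3.76 and 2.42 CPM. Prelp, a leucine-rich matrix protein, was instead near NS cells in RasV12, at 55.1 and 46.9 CPM against 46.6 and 38.4 CPM, and low in the knockdown at 1.72 and 1.93 CPM. Gnao1, a G protein subunit, and Xylt1, which starts proteoglycan chains, had the same form. Id4, an inhibitor of basic helix-loop-helix factors, was at 1.53 and 1.58 CPM in the knockdown, 18.1 and 15.8 CPM in RasV12 and 8.46 and 8.14 CPM in NS cells.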

How the data were processed

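RNA of adherent ASZ001 cells was taken with RNeasy columns and made into TruSeq libraries for an Illumina HiSeq instrument, per the labels' protocols and design text. The deposited table holds estimated counts per gene that the authors did not normalize, in steps of 0.5; TopHat, HOMER, DESeq2 and the mouse build mm9 are named per the submitters' processing notes, without versions. Strand use is not given in the sources used here, so antisense and overlapping genes are uncertain.

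The planned test assumed whole counts, so the estimated counts were rounded first. Of 24907 symbols (24909 entries, 2 duplicates dropped, 26 symbols turned into dates), 12538 passed edgeR's filterByExpr and held 99.96% of the counts. All 8 libraries, grouped by their labels, entered 1 fit with a mean per group (edgeR 4.0.16, R 4.3.3, TMM, robust quasi-likelihood F test, two-sided, Benjamini-Hochberg over all tested genes, 4 residual degrees of freedom). CPM use TMM-scaled totals. The biological coefficient of variation was 3.37%. On simulated counts for this comparison over 12538 genes, the fit recovered 72% of 50 genes at the smallest change simulated, under 1.5-fold. It recovered 84% at 1.5-fold, 94% at 2-fold and 100% at 4-fold, and called 0.113% of unchanged genes. Of the 95% intervals, 95.1% held the true value. The simulation took its spread from the fit itself, the same for all groups, so that share was largely set in advance. It also changed few genes, whereas 54.9% were called in the data. The p cut in the simulation was therefore stricter, and these rates do not carry over to the data.

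The comparisons of each perturbation with NS cells under DMSO share the NS libraries and are given side by side. Counts of genes in a list are read against the share over all tested genes. For groups with at most 3 counts a ratio of counts is given. The libraries and lists were chosen with earlier results of these data known. Named genes were Tgfbr1, Hras, Nras and Esr1, the 12 largest called differences in each direction with at least 10 CPM and no overlap, the 12 and 8 matched genes furthest above and below NS cells, and from each list up to 4 called genes with the smallest p and 2 matched genes with the highest CPM. Alternatives were DESeq2 1.42.0, RLE factors, no low-count filter, only the libraries compared, a replicate block, no Rn45s, each library left out, other margins and an adjusted p of 0.01. Of 690 genes tabulated, 495 matched a promoter entry by symbol. In the 250 bases before each start, 9 motifs were searched on both strands: TGANTCA, the interferon response core named with Ifit1, TGATGNAA, TGACGTCA, CAGGAAGT, GTCTAGAC, an NF-kB core (GGG and, 5 bases on, CC), GGAAGTGA and TTGCATCA. CAGGAAGT and GGAAGTGA overlap, and the reverse of TTGCATCA is a form of TGATGNAA. The motifs and the genes shown were chosen after the values were seen.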

Additional observations from a re-analysis of the deposited data

How the results depend on the processing

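Among the named genes and counts recomputed, no called difference changed sign in any setting run, whereas some differences that were not called did, such as Glul, from -0.21 to 0.39, and Vtcn1, from -0.42 to 0.12. With DESeq2, 1605 genes were above and 1660 below NS cells in RasV12, against 2613 and 2668, and the cause was not tested. In the direct comparison DESeq2 called 2622 genes higher in the knockdown and 2513 higher in RasV12. A narrower margin than 1.5-fold left 4348 genes matched, and a 2-fold margin gave 10156, as the width of the margin sets the count. Leaving out 1 library at a time gave 3020 to 3431 genes higher in the knockdown and 2916 to 3418 higher in RasV12; 472 to 499 and 606 to 646 at 2-fold; 7363 to 7869 matched; 3268 to 3923 above and 3281 to 3942 below NS cells in the knockdown; and 1867 to 2627 above and 1988 to 2687 below in RasV12. The replicate numbers did not pair the libraries (correlations of deviations from -0.0525 to 0.0738); a fit with the replicate number as a block called 3450 genes higher in the knockdown and 3451 higher in RasV12. The median difference over all genes stayed within 0.01 of 0 under every scaling tried. Among named genes, the direct calls of Jag2, B2m, Tkt, Thbs2, Arhgap18, Spry2, Krt17, Pecam1, Smo, Spink5, Junb, Actb, Spred1, Smurf1, Fzd1 and Shmt2 were lost in at least 1 setting. Matched calls were rechecked gene by gene only for the 12 and 8 matched genes furthest above and below NS cells. Of those, Glul, Vtcn1, Spry2 and Lgals1 lost the matched call in at least 1 setting. The matched calls of other named genes were not rechecked singly. Depth limits genes with few counts, whose ratios have wide intervals.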
